A study of Mus musculus with 6 samples.

Results

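The regions described here are the ATAC-seq peaks of untreated mouse embryonic stem cells (mESCs) that lie in the anchors of ZBTB21-responsive chromatin loops. A peak was a member when it overlapped, by at least 1 bp, a 25 kb anchor at the left or the right end of a loop in the study's list of 500 responsive loops. Of 41014 listed peaks, 854 were members (2.08%), and another 7083 lay between the anchors of the same loops. The rule used positions only and no score or width. The study took long loops that held both a ZBTB21 peak and a cohesin peak that fell, and ranked them by ZBTB21 and cohesin values summed over the open sites they span, so the number of peaks in a responsive loop is not independent of its class, and the same holds for overlap with ZBTB21.

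The series has 6 ATAC-seq samples. The 2 untreated samples are V6.5 cells, an established mESC line, grown with serum and LIF on irradiated mouse embryonic fibroblasts. The study's methods for mESCs differ, since they also list CHIR99021 and PD0325901 in the medium and name no feeder cells. The other 4 are ZBTB21-degron mESCs, in which the tagged protein can be degraded, at 0 h and at 6 h with 2 samples each, and were not analysed here. A treatment text that all labels share describes doxycycline given to degron cells, while the untreated samples carry the label of V6.5 cells. The deposited list pools both untreated replicates and holds no value per sample, so neither a spread between replicates nor a depth could be given, and no test over samples was possible. Intervals given below are 95% intervals, Wilson for shares, exact Poisson for densities, exact binomial for ratios of densities and Newcombe for differences of shares. They cover counting error only. Peaks are regions of 1 genome and not replicates of a condition.

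ATAC-seq marks open DNA, where the transposase Tn5 can insert its adapters, which is mostly at promoters, enhancers and insulators. Cohesin, a ring-shaped complex, extrudes chromatin into loops, and CTCF, a zinc finger protein, halts extrusion most often where its motif points towards the inside of the loop. The DNA at the base of a loop is its anchor. ZBTB21 is a zinc finger transcription factor of the BTB domain family.

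Some sequences show what such peaks hold. Of the 500 loops, 2 had a CTCF-like motif pointing into the loop in a peak at each end. The motif, searched as CCANNAGNNGGC on both strands, is in capitals, each line reads 5′ to 3′ on the strand that carries the motif, and positions are those of GRCm38 (mm10). The first loop spans chr14:75875001-77025000. Its left motif lies in an intron of Gtf2f2, which encodes a subunit of the general transcription factor TFIIF, at chr14:75899690-75899749 on the plus strand, and its right motif lies outside genes, with Lacc1 the nearest protein-coding gene, at chr14:77008418-77008477 on the minus strand. The right anchor is shared by 3 loops.
chr14 left anchor: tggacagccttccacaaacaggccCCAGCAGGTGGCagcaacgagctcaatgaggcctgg
chr14 right anchor: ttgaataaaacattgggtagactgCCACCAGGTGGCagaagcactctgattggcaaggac

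The second loop spans chr5:146675001-147300000. Its left motif lies outside genes, at chr5:146691887-146691946 on the plus strand. Its right motif lies at chr5:147294258-147294317 on the minus strand, within a noncoding gene model. The peak around this right motif lies 12893 bp from the start of Cdx2, which encodes a caudal-type homeobox factor.
chr5 left anchor: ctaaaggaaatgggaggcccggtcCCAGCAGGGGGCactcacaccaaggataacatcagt
chr5 right anchor: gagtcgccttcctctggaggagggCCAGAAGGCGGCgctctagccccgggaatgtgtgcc

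The peaks around the chr14 motifs had scores of 826 and 613, and those around the chr5 motifs had scores of 718 and 692. The score is the whole number that the authors deposited with each peak, from 540 to 953 over the list, and from its values it was read as a score of reproducibility between replicates. None of the 4 lay within 1 kb of a transcription start site (TSS) or overlapped a ZBTB21 peak.

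A second kind of member lies at promoters. The lines below give the 200 bases just before the start of 2 genes whose anchor peak also overlapped a ZBTB21 peak of the study, and of Rcn3, whose anchor was among those with the most peaks. The first stretch lies outside genes and the others in an intron of a gene model. Each reads 5′ to 3′ on the gene's strand in GRCm38, and capitals mark a GATA motif (AGATAA on the opposite strand), the only one of the motifs searched that these stretches held. Casp8ap2, which encodes a protein needed for histone mRNA processing, gave chr4:32615270-32615469 (plus strand). Snapc1, which encodes a subunit of the complex that activates small nuclear RNA genes, gave chr12:73964297-73964496 (plus strand). Rcn3, which encodes a calcium-binding protein of the endoplasmic reticulum, gave chr7:45092214-45092413 (minus strand).
Casp8ap2: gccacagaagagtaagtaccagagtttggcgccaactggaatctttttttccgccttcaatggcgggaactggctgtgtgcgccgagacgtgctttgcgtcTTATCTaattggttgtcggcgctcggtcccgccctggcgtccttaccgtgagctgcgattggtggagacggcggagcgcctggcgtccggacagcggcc
Snapc1: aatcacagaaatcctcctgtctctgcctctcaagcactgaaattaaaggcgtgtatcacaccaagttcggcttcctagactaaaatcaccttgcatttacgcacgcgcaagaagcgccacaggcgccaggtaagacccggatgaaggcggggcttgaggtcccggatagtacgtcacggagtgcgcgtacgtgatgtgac
Rcn3: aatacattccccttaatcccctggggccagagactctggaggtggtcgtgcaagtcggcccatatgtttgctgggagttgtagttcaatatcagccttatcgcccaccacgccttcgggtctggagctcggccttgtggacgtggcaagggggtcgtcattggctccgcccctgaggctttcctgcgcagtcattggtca

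The Casp8ap2 stretch was 60.5% G or C with 20 CpG dinucleotides, that of Snapc1 was 53.5% with 15, and that of Rcn3 was 58.0% with 10. Of all 124 promoter members, 70 were CpG-rich over 300 bp (over 50% G or C, and CpG over 0.6 times the number that the base composition gives). No such count is given here for promoter peaks outside anchors. Over members of every position the CpG-rich share was 11.5%, against 9.81% of peaks between anchors and 11.25% of the list.

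Peaks were denser in anchors than between them. The anchors, 22.95 Mb in all, held 37.2 peaks per Mb (34.8 to 39.8), and the 260.4 Mb between the anchors held 27.2 peaks per Mb (26.6 to 27.8). Over all chromosomes the list held 15.5 peaks per Mb. The ratio of anchors to the space between was 1.37 (1.27 to 1.47). Anchors made up 8.10% of the loops' span and held 10.8% of its peaks. With loops of 500 to 750 kb alone, 231 loops, the ratio was 1.17 (1.06 to 1.29), from 40.4 peaks per Mb in anchors and 34.4 between them. In the 269 longer loops the densities were 34.3 and 24.7 peaks per Mb.

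The difference was not shared by every chromosome. Anchors were denser than the space between on 16 of the 19 chromosomes with responsive loops, and less dense on chromosomes 2, 16 and 19, with ratios of 0.987, 0.987 and 0.794. The highest ratios were 3.09 on chromosome 18 (39 peaks in 28 anchors) and 2.37 on chromosome 3 (32 peaks in 28 anchors). Without chromosome 18 the ratio over the rest was 1.33 (1.23 to 1.43). Of the 268 regions that remain when overlapping loops are merged, the anchors were denser in 152 and less dense in 116, and 42 regions had no anchor peak.

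TSSs were denser in anchors as well. The anchors held 24.7 RefSeq TSSs per Mb and the space between held 17.5, a ratio of 1.41 (1.29 to 1.54). Peaks farther than 1 kb from any TSS were also denser in anchors, at 31.8 (29.5 to 34.2) against 23.5 (22.9 to 24.1) peaks per Mb, a ratio of 1.36 (1.25 to 1.46).

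**Figure D1:**
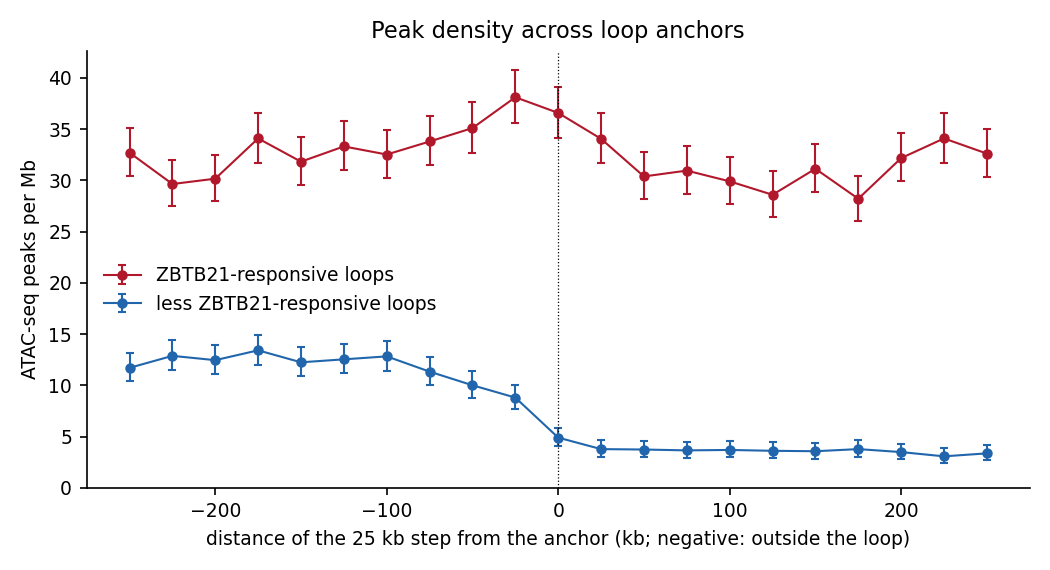
ATAC-seq peaks per Mb (y axis) in 25 kb steps from 250 kb outside to 250 kb inside each distinct anchor that is only a left or only a right anchor (x axis, kb; 0 is the anchor), for responsive and less responsive loops, with exact Poisson 95% intervals. The responsive curve is highest at the anchor and the step outside it, at 36.6 and 38.1 peaks per Mb. The less responsive curve falls across the anchor, and its low level is not independent of how that class was ranked.

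The anchor was not the densest of these steps. Peaks were placed by their midpoint and each of 916 anchors was taken once. The 2 that are a left anchor of one loop and a right anchor of another were left out. The density was 36.6 peaks per Mb (34.2 to 39.2) in the anchor and 38.1 (35.6 to 40.7) in the 25 kb just outside it. Inside the loop it was 34.1 (31.7 to 36.5) in the first step and between 28.2 and 34.1 in the next 9 steps. Outside, the steps from 50 to 250 kb away had 29.7 to 35.1 peaks per Mb. Because loops overlap, a step outside its own loop can lie within another responsive loop, and such steps were kept. Leaving out steps that are themselves anchors of another responsive loop gave 38.6 peaks per Mb outside and 34.3 inside. TSSs per Mb were 27.2 in the step outside, 24.6 in the anchor and 20.5 in the step inside, and their part in the profile was not tested. In stretches of 5 kb from the outer to the inner edge, the anchors held 172, 174, 179, 166 and 147 peaks, so that the innermost stretch held the fewest.

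Less responsive loops, which held neither a ZBTB21 peak nor a cohesin peak that fell, were sparser in peaks throughout. The study took them from the bottom of the same ranking over open sites. Their low number of peaks, and the fall across their anchors, are therefore not independent of the class. Their 964 distinct anchors held 5.02 peaks per Mb (4.17 to 6.00) and the space between held 3.39 (3.18 to 3.61), a ratio of 1.48 (1.22 to 1.79). Outside those anchors the density was 8.81 in the first step and 11.7 at 250 kb. The interval of this ratio overlaps that of the responsive loops.

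The 500 loops have 1000 anchor ends at 918 distinct anchors, 844 of them in 1 loop and 74 in 2 or more. A peak lay in 498 distinct anchors, 54.2% (51.0 to 57.5), against 44.2% (43.3 to 45.2) of 10415 bins of 25 kb between the anchors. The difference was 10.01 percentage points (6.64 to 13.4). No peak was listed in 420 anchors, 1 peak in 278, 2 peaks in 132, 3 in 54, 4 in 20, 5 in 11 and 6 in 3. Anchors of less responsive loops had a peak in 11.6% (9.75 to 13.8), a share that is not independent of how that class was ranked.

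**Figure D2:**
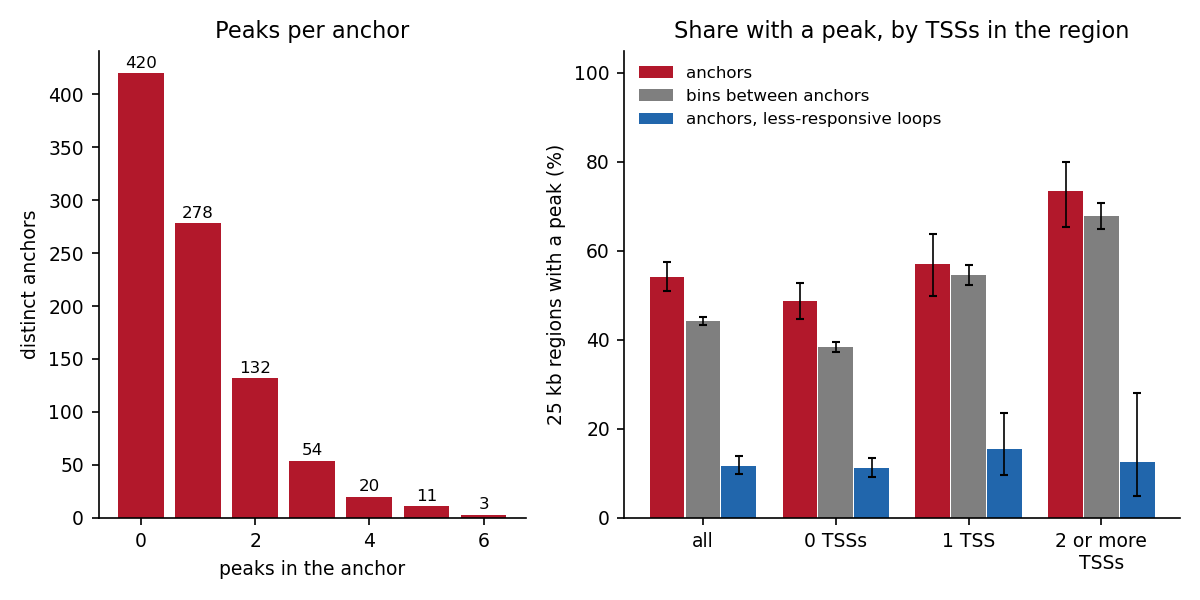
Left, the number of distinct anchors of responsive loops (y axis) with 0 to 6 peaks (x axis). Right, the share of 25 kb regions with a peak (y axis, %), by the number of TSSs in the region (x axis), for anchors, for 25 kb bins between anchors and for anchors of less responsive loops, with Wilson 95% intervals. Without a TSS, 48.8% of anchors and 38.5% of bins had a peak.

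In anchors and in bins of responsive loops, the share was higher the more TSSs a region held. Of anchors without a TSS, 48.8% (44.8 to 52.9) had a peak, against 38.5% (37.4 to 39.6) of such bins. With 1 TSS the shares were 57.0% (49.9 to 63.8) and 54.7% (52.4 to 56.9), and with 2 or more they were 73.4% (65.5 to 80.03) and 67.9% (64.9 to 70.7). In the last pairs the intervals overlapped. Base composition moved with the peaks as well, with a median GC content of 45.6% in anchors and 44.3% in bins. When both were divided at the quartiles of GC content, anchors averaged 0.336, 0.631, 1.09 and 1.29 peaks from the lowest to the highest class, and bins averaged 0.218, 0.570, 0.878 and 1.15. Anchors had the higher mean in each class, but no interval was computed, so whether the means differ within a class was not tested. The SDs over regions were 0.81, 0.96, 1.12 and 1.25 in anchors and 0.52, 0.87, 1.01 and 1.12 in bins. Shares with a peak were closest in the second class, at 40.9% of anchors and 39.0% of bins. The lowest class of bins reached a GC content of 0.0%, and 61 bins held unknown bases (N), against 3 anchors.

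Both ends of a loop held a peak in 171 of 500 loops, 1 end in 212 and neither in 117. The loops with no anchor peak were not without peaks, since they held 6 to 74 peaks between their anchors, with a median of 21, and the others had a median of 22. Left anchors had a peak in 55.6% of 459 and right anchors in 52.7% of 457, with 0.930 ± 1.11 and 0.934 ± 1.17 peaks per anchor (SD over anchors). Anchors of 2 loops had a peak in 47 of 68, or 69.1%, and anchors of 1 loop in 447 of 844, or 53.0%. In the 220 anchors with 2 or more peaks, neighbouring peaks lay a median of 5.88 kb apart (490 bp to 23.4 kb), and 16.2% of 359 such pairs lay under 2 kb apart.

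By position relative to genes, the ratio of anchors to the space between was highest at 1 to 10 kb from a TSS. Members at a promoter, with a TSS within 1 kb, numbered 124, or 5.40 per Mb, against 3.74 per Mb between anchors, a ratio of 1.44 (1.19 to 1.74). Members 1 to 10 kb from a TSS numbered 240, or 10.5 against 5.83 per Mb, a ratio of 1.79 (1.56 to 2.06). Members beyond 10 kb and inside a gene numbered 263, with 11.5 against 10.3 per Mb and a ratio of 1.11 (0.975 to 1.26), whose interval includes 1. Beyond 10 kb and outside genes lay 227 members, with 9.89 against 7.32 per Mb and a ratio of 1.35 (1.17 to 1.55).

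**Figure D3:**
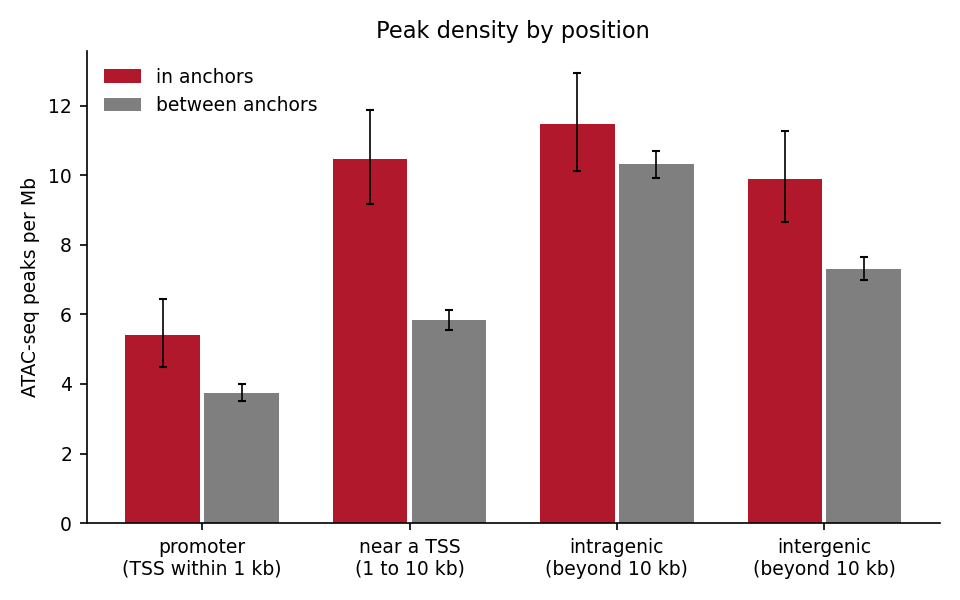
ATAC-seq peaks per Mb (y axis) by position relative to genes (x axis), in anchors and between anchors of responsive loops, with exact Poisson 95% intervals. Anchors are denser at 1 to 10 kb from a TSS (10.5 against 5.83) and near to the space between for intragenic peaks (11.5 against 10.3).

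As shares, promoter peaks made up 14.5% (12.3 to 17.0) of members and 13.8% (12.98 to 14.6) of peaks between anchors, a difference of 0.755 percentage points (-1.60 to 3.40) that counting error alone can span. Over the whole list the share was 15.6%. Peaks 1 to 10 kb from a TSS made up 28.1% of members and 21.4% of the others, a difference of 6.67 points (3.60 to 9.92). Intragenic peaks made up 30.8% and 37.9%, a difference of -7.11 points (-10.3 to -3.74). The median distance to the nearest TSS was 13466 bp for members and 18547 bp between anchors. By its midpoint, 3.40% of members lay in a coding exon, 4.45% in another exon, 47.7% in an intron and 44.5% outside genes, and between anchors the last share was 39.0% (37.9 to 40.2).

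In width and score, members and peaks between anchors had nearly the same medians, and the intervals of both differences include 0. The members' median width was 557.5 bp (quartiles 447 and 706.5) and that of peaks between anchors was 552 bp (429 and 703), a difference of 5.50 bp (-14.9 to 19.9). The median score of members was 700 (626 and 768) against 698 (624 and 767), a difference of 2 (-6.54 to 12.4). Scores of 900 or more were held by 10 members (1.17%) and 1.34% of the others, and widths of 1000 bp or more by 64 members (7.49%) and 6.09%. Promoter members stood apart from the rest of the members, with a median width of 702.5 bp, score of 732.5 and GC content of 59.2% over 300 bp, against 516 bp, 696 and 52.0% for intergenic ones. Between anchors, promoter peaks had a median width of 735 bp and score of 739.

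**Figure D4:**
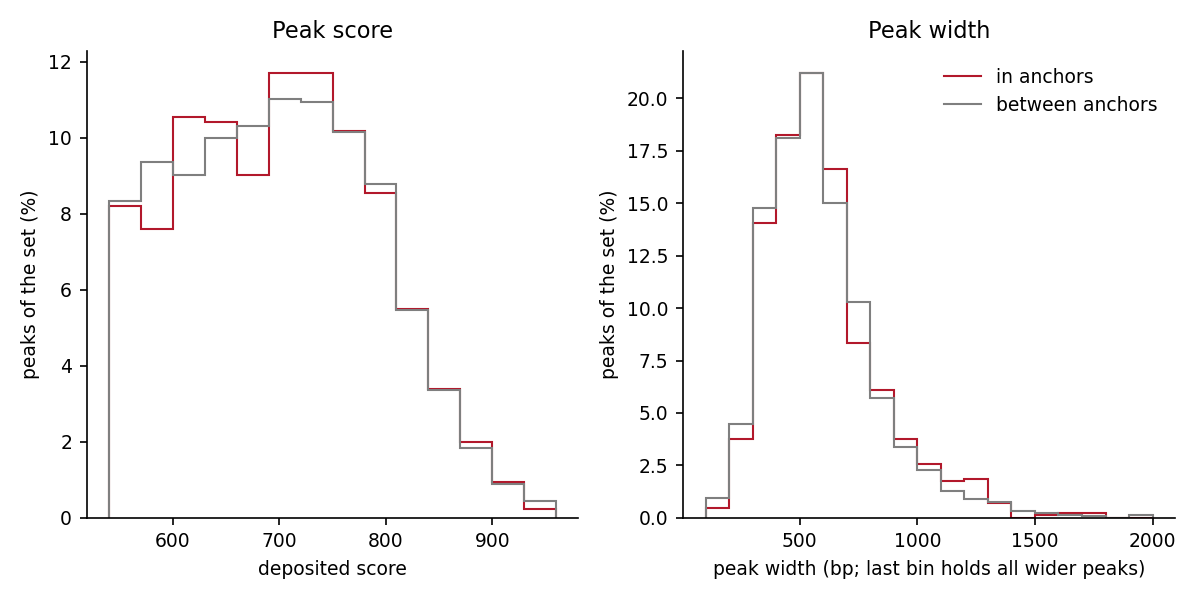
Share of peaks (y axis, %) by the deposited score (left) and by width in bp (right), in anchors and between anchors of responsive loops. The curves lie close together, with medians of 700 and 698 in score and 557.5 and 552 bp in width.

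A CTCF-like motif was somewhat more frequent in members, though not under every way of counting. It was found within 300 bp around the midpoint of 103 members, 12.1% (10.04 to 14.4), of 9.35% (8.69 to 10.1) of peaks between anchors and of 9.48% of all listed peaks on chromosomes. The difference of 2.71 percentage points (0.580 to 5.16) was seen in the shorter loops and not in the longer ones. In loops of 500 to 750 kb the shares were 14.3% (11.4 to 17.9) and 8.25% (7.39 to 9.19), and in longer loops, a division added after the values were seen, they were 9.66% (7.22 to 12.8) and 9.84% (9.05 to 10.7). When peaks scoring at or below the list median (696) were left out, the difference was 0.644 points (-1.99 to 3.90), an interval that includes 0. With 1 more fixed base (CCANNAGGNGGC) the shares were 4.68% and 4.32%, a difference of 0.364 points (-0.960 to 2.06). Intergenic members had the motif most often, 38 of 227 or 16.7% (12.5 to 22.1), against 10.1% (8.86 to 11.6) of intergenic peaks between anchors, and 4 of 124 promoter members had it.

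**Figure D5:**
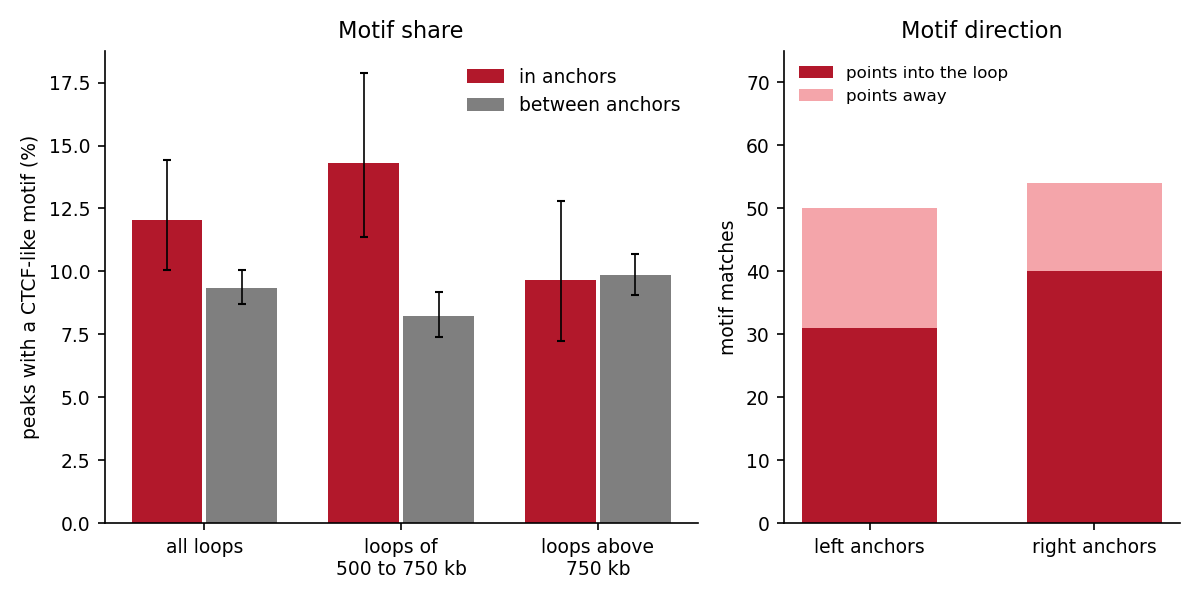
Left, the share of peaks with a CTCF-like motif (y axis, %) in anchors and between anchors, for all responsive loops, loops of 500 to 750 kb and longer loops (x axis), with Wilson 95% intervals. Right, the number of motif matches (y axis) in peaks of left and right anchors (x axis) by direction: 71 of 104 point into the loop.

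The motif mostly pointed into the loop. Of 104 matches in anchor peaks, 71 pointed inwards, 68.3% (58.8 to 76.4). The interval included 50% in 3 smaller sets, peaks above the median score (61.4%, 46.6 to 74.3), the stricter motif (65.0%, 49.5 to 77.9) and loops above 750 kb (64.3%, 49.2 to 77.01). In left anchors 31 matches lay on the plus strand and 19 on the minus strand, and in right anchors 14 and 40. Matches were rarely present at both ends, since 95 loops had one in peaks of exactly 1 anchor and 5 in both. Those 5 loops were convergent in 2 cases, which are the chr14 and chr5 loops printed above, tandem in 2 and divergent in 1. The KLF/SP motif (GGGCGGGG), set beside it for comparison, pointed inwards in 57.1% (47.9 to 65.9) of 112 matches, an interval that overlaps that of the CTCF-like motif. In the less responsive loops 13 of 16 CTCF-like matches pointed inwards, 81.3% (57.0 to 93.4), an interval that overlaps that of the responsive loops.

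For every motif searched, the CTCF-like one included, the intervals of members and of peaks between anchors overlapped. The KLF/SP motif was in 9.48% of members, 8.98% of peaks between anchors and 8.72% of the list. Of promoter peaks alone, 29.8% of members, 23.9% of those between anchors and 22.8% of those in the list had it. The AP-1 motif (TGANTCA) was in 9.60%, 11.4% and 11.3%, and the GATA motif (AGATAA) in 9.37%, 9.60% and 9.29%. The YY1 motif (AAGATGGC) was in 2.34%, 1.98% and 2.23%, and the POU octamer (ATGCAAAT), which OCT4 binds, in 2.11%, 3.01% and 2.85%. The ESRRB motif (TCAAGGTCA) was in 5 members, 0.585% (0.250 to 1.36), against 1.40% (1.15 to 1.70) between anchors, a difference of -0.812 points (-1.26 to 0.00413). The NRF1 motif (GCGCNTGCGC) was in 6 members, or 0.703%, against 1.04% between anchors and 1.15% of the list, and the ZFP143 motif (ACTACANTTCC) was in 1 member, or 0.117%, against 0.424% and 0.405%. A match describes letters and not binding.

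ZBTB21 peaks of the study overlapped 33 members, 3.86% (2.77 to 5.38), against 2.84% (2.48 to 3.25) of peaks between anchors and 1.98% of the list. Since responsive loops were chosen for ZBTB21 peaks, this is a description. Of the 33 members, 15 were promoter peaks, of 124 in all. Of the 201 peaks between anchors that overlapped ZBTB21, 117 were promoter peaks, and of the 814 in the list, 541 were. Whether these shares differ was not tested. The ZBTB21 peaks themselves numbered 88 in anchors and 432 between, 3.83 and 1.66 per Mb. Of the 88, 33 had a listed ATAC-seq peak. A ZBTB21 peak lay in 81 anchors, of which 59, or 72.8% (62.3 to 81.3), had an ATAC-seq peak, against 52.4% (49.1 to 55.8) of the 837 others. In 31 of the 81 anchors an ATAC-seq peak was shared with a ZBTB21 peak, so the 2 kinds of peak were not counted independently. The 81 anchors averaged 1.51 TSSs and the 837 averaged 0.531, and the part of the TSSs in that difference was not tested. The members with ZBTB21 and the highest scores lay at Per1 (927), which encodes a circadian clock protein, and at the promoters of Pum3 (924), Casp8ap2 (907) and Snapc1 (899).

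The anchors with the most peaks were few. The 14 anchors with 5 or more peaks held 73 members. Such counts are not particular to anchors, since 25 kb bins between them held up to 7 peaks. The densest pair formed the ends of 1 loop, chr13:21225001-21950000, with 5 peaks in the left and 6 in the right anchor and 36 between. In the right anchor the 6 peaks lay outside genes, beside Zfp184, which encodes a zinc finger protein, with scores of 626, 676, 723, 725, 748 and 802 and widths of 291 to 652 bp. None was at a promoter, and 1 had a CTCF-like motif. In the left anchor the peaks lay in introns of a noncoding gene model, 43392 to 54228 bp from Gpx5, a glutathione peroxidase gene, or Trim27, a ubiquitin ligase gene, with scores of 591, 648, 703, 712 and 806.

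The anchor at chr7:45075001-45100000 also had 6 peaks. They ran from beyond the 3′ end of Rcn3, across a coding exon and its promoter, to an intron of Fcgrt, the gene of the neonatal Fc receptor, with scores of 625, 647, 690, 710, 711 and 720. The loop it begins held 53 more peaks, 92.2 per Mb, the highest density inside any of the 500 loops. The other anchor with 6 peaks lies on chromosome 18 and holds the TSS of Il17b, an interleukin gene, with scores from 569 to 789 and no promoter peak.

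Of the anchors with 5 peaks, that at chr17:47775001-47800000 covers the start of Tfeb, which encodes a transcription factor of lysosome genes. Its promoter peak had a score of 551, the lowest of the 5, and the 4 others, from 2692 to 9895 bp away, scored 724 to 817. The anchor at chr11:117075001-117100000 held no protein-coding TSS, and its 5 peaks scored 666 to 848 at 22258 to 33333 bp from Sec14l1. The anchors with Med13l, Etnk1, Tor1b, Tpt1 or, on chromosome 18, Tex43 as nearest protein-coding TSS also held 5 peaks each and no promoter peak. Their scores ranged from 639 to 857, 584 to 802, 565 to 855, 541 to 834 and 546 to 780 in that order. High and low scores thus stood side by side in each. The anchor listed by Tor1b overlaps the gene Ptges. The anchor with the TSS of Mical3, which encodes an actin-oxidizing enzyme, had 3 promoter peaks among its 5, with scores from 582 to 732.

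The anchors shared by the most loops held 0 to 2 peaks. The right anchor at chr5:119700001-119725000, common to 4 loops, held 2 peaks with scores of 613 and 852, at 33756 and 38838 bp from Tbx3, a T-box transcription factor gene. The lower one had a CTCF-like motif. The other anchor common to 4 loops, at chr13:44950001-44975000 within Dtnbp1, held no peak, although its loops held 30 to 45 peaks between their anchors. The anchor at chr7:112400001-112425000, common to 3 loops, held 1 peak with a score of 745. It overlaps the gene Micalcl, and its nearest protein-coding TSS is that of Parva, a focal adhesion gene, 15205 bp away.

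Among promoter members, the highest score, 950, was at Fnbp4, which encodes a formin-binding protein. Next were Tent5b (937), a gene of the poly(A) polymerase family, Pum3 (924), which encodes an RNA-binding protein, Ahctf1 (915), which encodes a nuclear pore protein, and Cars (915), which encodes a transfer RNA synthetase. Prpf8 (910), a core spliceosome gene, Casp8ap2 (907), Msrb1 (901), which encodes a methionine sulfoxide reductase, and Snapc1 (899) followed. Wrap53, which encodes a telomerase-associated protein, and its antisense neighbour Trp53, the p53 gene, shared a peak with a score of 896, which the peak at Zc3hav1l equalled. The 10 highest scores of all members also included that of the Per1 peak (927), which lay 3928 bp from the gene's start. The widest members, from 1597 to 1785 bp, all lay at promoters, those of Rdm1, Spag7, Fam76b, Ywhag and Rin3, with scores of 774, 739, 851, 634 and 633.

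A TSS in an anchor was held by 386 protein-coding genes, and 111 of them, 28.8% (24.5 to 33.5), had a peak within 1 kb of it. Between anchors the share was 30.9% (29.2 to 32.6) of 2884 genes, and over 21000 genes it was 28.5%. Of the 296 anchors with a protein-coding TSS, 100 had a promoter peak, 88 had only other peaks and 108 had none. In 391 anchors all peaks lay farther than 1 kb from a TSS.

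Over all protein-coding genes, 386 of 21000 had a TSS in an anchor, so that few or none are to be found in short lists, and the counts below are descriptions. None of 35 pluripotency genes and none of 24 cohesin and CTCF genes had a TSS there. Neither did any of the 9 gene loci that the study names for mESCs, of which 6 lay between anchors. Over all protein-coding genes, 2884 of 21000 had a TSS between anchors. The study showed such loci as examples of ZBTB21 binding or of changed cohesin or interactions, so their place in responsive loops is not independent of that choice. Of 28 Polycomb genes, Aebp2 had its TSS in an anchor, which held no peak. Of 89 lineage transcription factor genes, 5 did. Pax2 had a promoter peak with a score of 559, Hnf4a and Nkx2-5 had anchors with 2 and 1 peaks away from the promoter, and the anchors of Barhl1 and Tal1 had none. Of 39 Hox genes, which pattern the body axis, Hoxa3, Hoxa5, Hoxa6 and Hoxa7 shared 1 anchor of 2 loops with no listed peak. Of 41 ZBTB family genes 2 had a TSS in an anchor. Zbtb6 had a promoter peak with a score of 633, and Zbtb26 shares its anchor. Of 395 Zfp genes 5 had a TSS in an anchor, and 3 of them a promoter peak, Zfp672 (740), Zfp385a (706) and Zfp532 (598). Between anchors 23 of 49 Zfp genes had a promoter peak, and over the genome 178 of 395, or 45.1%. Of 87 ribosomal protein genes 3 had a TSS in an anchor, and Rpl8 had a promoter peak with a score of 718. None of the 5 olfactory receptor genes with a TSS in an anchor had a promoter peak.

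Over the list, 3 of 8 mESC marker genes had a peak within 1 kb of a TSS (Nanog, Pou5f1 and Zfp42), and Sox2, Esrrb, Klf4, Dppa4 and Tdgf1 had none. Of 8 fibroblast markers, which feeder cells express, 2 had one (Pdgfra and Thy1). Over all 21000 protein-coding genes the share was 28.5%, and both counts are near it. In the longer list of 35 pluripotency genes, 17 had such a peak, 48.6% (33.0 to 64.4), an interval above that share. The Pdgfra peak was itself a member, with a score of 687, as the only peak of a right anchor common to 3 loops, chr5:75150001-75175000. The part of feeder cells in the members was not tested.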

How the data were processed

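Members, lists and alternatives were chosen with earlier results of these data known. The authors deposited 1 BED list of ATAC-seq peaks for both untreated replicates, with mm10 coordinates and a score per peak (540 to 953), and no counts. How the peaks were called, and whether cut sites were shifted for Tn5, is not given in the sources used here. The submitters' processing notes name cutadapt 2.6, Bowtie2 2.3.5.1 and MACS2 2.1.1. The smallest score equals that of an IDR (irreproducible discovery rate) of 0.05, from which the score was read as an IDR score. Depth is unknown, and 14 unplaced peaks were left out of sequence counts.

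Loops and ZBTB21 peaks (1827) came from the study's supplementary lists. The sheet with the ZBTB21 peaks was cut short, 171 rows after their last, and was used for description. Peaks, anchors (25 kb) and the space between were each counted once, and a peak in an anchor was never counted between. TSSs were 31647 starts of RefSeq NM and NR transcripts on GRCm38, with promoters within 1 kb. Motifs were searched in 300 bp around midpoints. Intervals of medians came from order statistics. Alternatives were the overlap rule, score, merging within 500 bp, loop span, TSS distance and type, motif and unit of counting. Named were the 12 anchors with most peaks, the 3 of most loops (ties by summed score), the 10 genes with the highest promoter scores, the 5 widest members and genes of fixed lists. The ZBTB21 members, the printed promoters, Per1 and Zc3hav1l were named after values were seen. Counting was tested on simulated data. Python 3.11.15, numpy 2.4.6, pandas 2.3.3, scipy 1.17.1 and matplotlib 3.10.9 were used.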

Additional observations from a re-analysis of the deposited data

How the results depend on the processing

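The inward share of the CTCF-like motif stayed within its interval under all 9 alternatives (61.4 to 72.3%), although 3 of them had intervals that include 50%. Within their intervals too were the differences in median width (-2.50 to 16.3 bp, 7 alternatives) and score (-2.75 to 5.00, 6 alternatives). The density ratio stayed above 1 under all 9 (1.17 to 1.41) and left its interval with loops of 500 to 750 kb (1.17). Those loops gave 447 members, 60.3% of anchors with a peak and a CTCF-like motif difference of 6.07 percentage points. With longer loops, added after seeing the data, these were 49.8% and -0.184 points, a change of sign. The differences in width, score and promoter share, whose intervals include 0, also changed sign under some alternatives. Peaks above the median score gave 444 members and 35.8% of anchors with a peak, since fewer peaks were counted. The stricter motif gave 0.364 points. Taken within merged regions, the median promoter share difference was -5.56 points, and the cause was not tested. No paired analysis was possible because the list pools the replicates, and for the same reason no replicate could be left out. Depth limits cannot be given, and an anchor without a listed peak may hold open DNA that the list leaves out.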
